A study of Homo sapiens with 20 samples.

Results

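Transcribed unprocessed pseudogenes are disabled copies of genes that arose by duplication of genomic DNA and for which a transcript has been annotated. The members described here were all genes of that type (transcribed_unprocessed_pseudogene) in GENCODE release 44 on GRCh38. The annotation holds 961 of them, and 794 had a transcript in the deposited files, out of 57536 genes matched in all. RNA-seq came from NGP cells, an established human neuroblastoma line, so every statement concerns 1 line. The vehicle group was 10 samples treated with ethanol, and the nutlin group was 10 samples treated with 8 µM nutlin-3 as a racemic mixture, a small molecule that binds MDM2 and releases p53 from it. Both groups were cells of the same line grown in culture flasks, and the duration of treatment is not given in the sources used here.

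Unlike processed pseudogenes, which are reinserted from mRNA without introns, unprocessed pseudogenes can keep the exon and intron layout of the gene they were copied from, called the parent here. Many lie in segmental duplications, long blocks of near-identical sequence on chromosomes 1, 7, 15, 16, 17 and 22. Their transcripts are usually read as non-coding RNAs, and because a read may match the pseudogene, the parent and further copies equally well, the level of a single copy depends on how such reads are shared out.

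The sequences below show how closely members resemble their parents, since the comparison of pseudogene and parent turns on the few bases at which they differ. Each line is a stretch of 90 bases of the transcript, 5′ to 3′, from a single exon of the pseudogene and a single coding exon of the parent, read from GENCODE release 44 on GRCh38. Capitals mark the positions at which the sequences shown together are not all alike. The stretch with the most such positions in a gap-free alignment was taken for each pair.

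PKD1 encodes polycystin-1, a large membrane protein of the kidney tubule whose loss causes polycystic kidney disease. Over the aligned bases PKD1P3, PKD1P4 and PKD1P5 were 98.0%, 98.1% and 98.1% identical to its coding sequence. The stretch lies at chr16:2112838-2112927 on the minus strand in PKD1, at chr16:14924013-14924102 on the plus strand in PKD1P3, at chr16:18345914-18346003 on the minus strand in PKD1P4 and at chr16:18389409-18389498 on the minus strand in PKD1P5. Here PKD1P3 and PKD1P4 each differ from PKD1 at 7 positions and PKD1P5 at 5.
PKD1: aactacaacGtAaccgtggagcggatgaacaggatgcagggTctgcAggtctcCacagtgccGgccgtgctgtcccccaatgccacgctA
PKD1P3: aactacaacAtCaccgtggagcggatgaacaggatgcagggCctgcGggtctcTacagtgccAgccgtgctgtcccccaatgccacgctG
PKD1P4: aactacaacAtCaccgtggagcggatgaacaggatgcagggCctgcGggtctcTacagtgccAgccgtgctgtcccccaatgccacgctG
PKD1P5: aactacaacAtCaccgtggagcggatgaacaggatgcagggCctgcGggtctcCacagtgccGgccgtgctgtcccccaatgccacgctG

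PARG encodes poly(ADP-ribose) glycohydrolase, the enzyme that removes poly(ADP-ribose) chains after DNA repair. PARGP1 was 98.8% identical to it over 2070 aligned bases. The stretch with the most differences holds only 4, at chr10:49933603-49933692 in PARG and chr10:45964311-45964400 in PARGP1, both on the minus strand.
PARG: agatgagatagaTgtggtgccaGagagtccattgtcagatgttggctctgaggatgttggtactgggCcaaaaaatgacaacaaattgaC
PARGP1: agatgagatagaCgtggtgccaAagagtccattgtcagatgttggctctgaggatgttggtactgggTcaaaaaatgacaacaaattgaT

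AMZ2 encodes a zinc metallopeptidase, and AMZ2P1 was 95.3% identical to it over 580 aligned bases. The stretch, with 9 differences, lies at chr17:68250188-68250277 on the plus strand in AMZ2 and at chr17:64973428-64973517 on the minus strand in AMZ2P1.
AMZ2: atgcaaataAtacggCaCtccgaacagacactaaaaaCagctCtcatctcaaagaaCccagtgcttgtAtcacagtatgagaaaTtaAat
AMZ2P1: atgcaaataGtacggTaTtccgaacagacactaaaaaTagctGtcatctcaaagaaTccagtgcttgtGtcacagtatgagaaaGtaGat

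CSPG4 encodes a chondroitin sulfate proteoglycan of the cell surface, also known as NG2. CSPG4P12 was the most diverged of the copies shown, with 90.3% identity over 4807 aligned bases and 18 differences in the stretch. It lies at chr15:75690689-75690778 on the minus strand in CSPG4 and at chr15:85193304-85193393 on the plus strand in CSPG4P12.
CSPG4: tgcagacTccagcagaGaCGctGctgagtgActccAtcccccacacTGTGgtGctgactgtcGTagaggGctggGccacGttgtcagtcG
CSPG4P12: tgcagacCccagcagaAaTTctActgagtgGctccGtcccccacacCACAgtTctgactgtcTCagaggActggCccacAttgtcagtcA

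PDE4DIP encodes myomegalin, a protein of the centrosome and Golgi apparatus. PDE4DIPP2 was 99.4% identical to it over 4554 aligned bases and shows 5 differences in the stretch, at chr1:149029826-149029915 on the plus strand in PDE4DIP and chr1:120491945-120492034 on the minus strand in PDE4DIPP2.
PDE4DIP: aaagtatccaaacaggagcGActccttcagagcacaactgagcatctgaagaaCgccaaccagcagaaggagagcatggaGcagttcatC
PDE4DIPP2: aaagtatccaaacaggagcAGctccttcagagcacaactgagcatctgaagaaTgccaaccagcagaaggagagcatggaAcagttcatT

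CRYBB2 encodes a beta-crystallin of the eye lens. CRYBB2P1, the member with the highest level per length, was 94.5% identical to it over 438 aligned bases, with 8 differences at chr22:25227857-25227946 in CRYBB2 and chr22:25455716-25455805 in CRYBB2P1, both on the plus strand.
CRYBB2: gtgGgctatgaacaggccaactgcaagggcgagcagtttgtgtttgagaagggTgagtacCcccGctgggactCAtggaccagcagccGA
CRYBB2P1: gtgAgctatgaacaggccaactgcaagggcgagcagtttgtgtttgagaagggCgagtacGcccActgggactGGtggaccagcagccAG

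PMS2 encodes a subunit of the MutL complex of DNA mismatch repair. PMS2P1 was 95.9% identical to it over 536 aligned bases, with 10 differences at chr7:6002495-6002584 in PMS2 and chr7:100328878-100328967 in PMS2P1, both on the minus strand.
PMS2: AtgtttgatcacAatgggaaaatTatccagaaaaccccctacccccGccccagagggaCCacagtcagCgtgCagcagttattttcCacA
PMS2P1: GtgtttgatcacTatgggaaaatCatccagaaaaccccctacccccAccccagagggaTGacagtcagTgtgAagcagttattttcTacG

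The samples held between 14455477 and 19532971 estimated read pairs. MDM2, a p53 target and the protein nutlin-3 binds, had a median of 239 CPM (counts scaled to library size) in vehicle and 5412 CPM in nutlin samples. CDKN1A, the p53 target that encodes p21, had 34.1 and 1619 CPM, and the groups did not overlap for either gene. The neuroblastoma markers MYCN, HAND2, GATA3, ISL1, DBH, TH and CHGA were at 118 CPM or more in every sample, whereas the 13 markers of leukocytes, endothelium, epithelium and red cells did not exceed 2.37 CPM.

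The members took a larger share of the RNA counted after nutlin. In the vehicle samples 0.0517 to 0.0630% of the estimated counts lay on members (mean 0.0567% ± 0.0037, SD, n = 10), and in the nutlin samples 0.0804 to 0.0944% (mean 0.0894% ± 0.0042, SD, n = 10), with no overlap between the groups. PKD1P4, PKD1P5 and PKD1P3 together held 25.8% of all counts on members. Without the 4 pseudogenes of PKD1 the shares were 0.0391 to 0.0478% and 0.0566 to 0.0649%, again without overlap. In a bulk culture, more cells with a transcript and more transcript per cell cannot be told apart.

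Most members were weakly counted or not counted. Of the 794, 265 had no count in any sample, 131 had counts in nutlin samples only, 39 in vehicle samples only, and 359 had at least 1 count in each condition and were tested. The median level of the tested members was 0.159 CPM, against 0.544 CPM over all 36016 genes tested. Only 82 members reached a mean of 1 CPM over the 20 samples.

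At 5% FDR (edgeR quasi-likelihood F-test), 115 of the 359 tested members were called, which is 32.0% against 49.2% of all genes tested. Of these, 95 rose and 20 fell. The share that rose was 26.5%, close to the 27.9% over all genes, and the share that fell was 5.57%, against 21.4% over all genes. The median log2 fold change (LFC, nutlin against vehicle) was 0.48 for members and 0.22 for all genes. Where the mean reached 1 CPM, 51 of 82 members were called (62.2%, 38 up and 13 down), against 78.8% of all such genes, with median LFCs of 0.30 and -0.08. The groups did not overlap for 16 of the 82 (19.5%, 13 up and 3 down), against 48.8% of all such genes.

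Other gene types with low levels looked similar. Upward calls made up 82.6% of the called members, 82.9% of called lncRNAs, 80.6% of called unprocessed pseudogenes without annotated transcription and 84.0% of called transcribed processed pseudogenes. For protein-coding genes they made up 44.5%. The percentage called was 36.2% for lncRNAs, 25.8% for unprocessed and 34.4% for transcribed processed pseudogenes, whose median levels were 0.206, 0.0649 and 0.169 CPM. These percentages are set side by side with no test of a difference between types.

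The largest inductions were found where the vehicle samples were nearly empty. For the 277 tested members under 1 CPM, 64 were called (23.1%, 57 up and 7 down), against 26.1% of all genes under 1 CPM, and 7 were called without overlap between the groups (2.53%), against 3.48%. All 7 rose. They and the nutlin-only members below were singled out after their values were seen.

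Of the 7, ENSG00000266306 and ENSG00000264029 lie next to each other on the minus strand of chromosome 17, at chr17:28268968-28272344 and chr17:28274657-28275716. Most of their sequence occurs in no other gene, with 93.7% and 87.9% of their 31-mers (all stretches of 31 bases) unique to them. ENSG00000266306 had 0 to 3 counts per vehicle sample (median 1) and 19 to 38 per nutlin sample (median 31), or 0.0520 ± 0.063 and 1.79 ± 0.43 CPM (SD, n = 10 each). Every nutlin sample was above every vehicle sample, and the LFC was 4.95 (SE 0.33, edgeR adjusted p = 2.15e-14). ENSG00000264029 had 2 counts in all vehicle samples together and 53 after nutlin, a ratio of 25.6 (95% exact counting interval 6.75 to 217) (LFC 4.02, SE 0.53, edgeR adjusted p = 9.85e-08). Both share exon bases with 1 lncRNA on the same strand, and the sum over the 3 genes was 2.41 ± 0.41 CPM in vehicle and 9.82 ± 2.1 CPM in nutlin samples (LFC 2.02, SE 0.12), a smaller ratio than that of either pseudogene model.

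HSD3BP5 (chr1:119601340-119609250, plus strand), a copy from the cluster of 3-beta-hydroxysteroid dehydrogenase genes of steroid hormone synthesis, was 68.2% unique and had no overlapping lncRNA. It had 0 to 4 counts per vehicle sample (median 0.5) and 9 to 29 per nutlin sample (median 18), and its LFC was 4.14 (SE 0.38, edgeR adjusted p = 6.83e-11). OR7E161P, a copy of an olfactory receptor gene, had 1 count in the vehicle samples together and 39 after nutlin, a ratio of 37.7 (95% exact counting interval 6.38 to 1526) (LFC 4.13, SE 0.61, edgeR adjusted p = 8.21e-07). EVA1CP2 (chr4:3915187-3924274, minus strand) had 2 counts in vehicle and 152 in nutlin samples, a ratio of 73.4 (95% exact counting interval 19.98 to 612) (LFC 5.52, SE 0.43, edgeR adjusted p = 1.07e-12). Only 7.80% of EVA1CP2 was unique, and with its overlapping lncRNA it stood at 2.53 ± 0.46 and 5.93 ± 0.69 CPM, an LFC of 1.23 (SE 0.10). GOLGA6GP (LFC 2.15) and FAM21EP (LFC 1.59) made up the remainder of the 7.

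Members with counts in 1 condition only did not enter the test, and most held next to nothing: the median total was 2 counts for the 131 seen in nutlin samples and 1 count for the 39 seen in vehicle samples. Of those with a total of at least 20 counts there were 8, all of them in nutlin samples. The same counts over all genes were not made, so whether the excess in nutlin samples is particular to members was not tested. FKBP9P1 (chr7:55682652-55713252, minus strand), a copy of the gene of a prolyl isomerase of the endoplasmic reticulum, was listed at 0 in every vehicle sample and at 21.7 to 60.5 estimated counts in the nutlin samples (median 47.8). The locus means the member summed with the lncRNAs that share exon bases with it on the same strand. Members that overlap each other or share such an lncRNA were joined into 1 locus. The locus of FKBP9P1 held 0 to 0.386 CPM in vehicle (median 0.215) and 2.53 to 5.43 CPM in nutlin samples (median 4.66). The locus rose by an LFC of 4.31 (SE 0.23, edgeR adjusted p = 1.57e-16), and the parent FKBP9 fell from 53.3 ± 1.7 to 38.3 ± 1.6 CPM (SD, n = 10 each), an LFC of -0.48 (SE 0.03, edgeR adjusted p = 1.05e-13). The model, picked for its 0 in vehicle samples, held 449 of the 743 counts of the locus in nutlin samples. The p-values of this locus and of those below are therefore not independent of how the members were picked.

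TRPC2, the human remnant of an ion channel gene that serves pheromone sensing in other mammals, was 61.9% unique and was listed at 0 in every vehicle sample and at 3.57 to 12.2 counts in the nutlin samples (median 9.90). Its locus held 0 counts in vehicle and 147 counts in nutlin samples, which is at least 47.3-fold higher when 3 counts over the whole vehicle group stand for its level. FAM90A28P likewise had 0 and 63 counts at its locus, at least 20.3-fold higher by the same floor. The locus of NBEAP1 rose by an LFC of 4.30 (SE 0.35) and that of ANKRD20A11P by 3.67 (SE 0.30), while NBEA, the parent of NBEAP1 and a gene of neuronal membrane trafficking, fell by 0.80 on the log2 scale (edgeR adjusted p = 1.89e-16).

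HSD17B7P2 and CELP moved the same way as their parents. The locus of HSD17B7P2 was at 0.826 to 1.38 CPM (median 0.943) in vehicle and 6.89 to 11.3 CPM (median 8.93) in nutlin samples, without overlap, an LFC of 3.15 (SE 0.12, edgeR adjusted p = 1.35e-20). HSD17B7, an enzyme of cholesterol synthesis and the parent, rose by an LFC of 1.5 (SE 0.07). CELP, a copy of the gene of bile salt-dependent lipase, had a locus LFC of 1.17 (SE 0.21) beside 1.03 (SE 0.10) for CEL. For CCDC144BP the model and the locus differed. The model was listed at 0 in all vehicle samples and at 1.58 to 99.7 counts in the nutlin samples. Its locus, which also takes in USP32P2, already held 61.9 ± 8.5 CPM in vehicle and 105 ± 5.7 CPM in nutlin samples (LFC 0.76, SE 0.06). CCDC144BP with only its own overlapping lncRNAs held 7171 counts over the vehicle samples and 14101 over the nutlin samples. Only 0.724% of its 31-mers were unique.

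**Figure D1:**
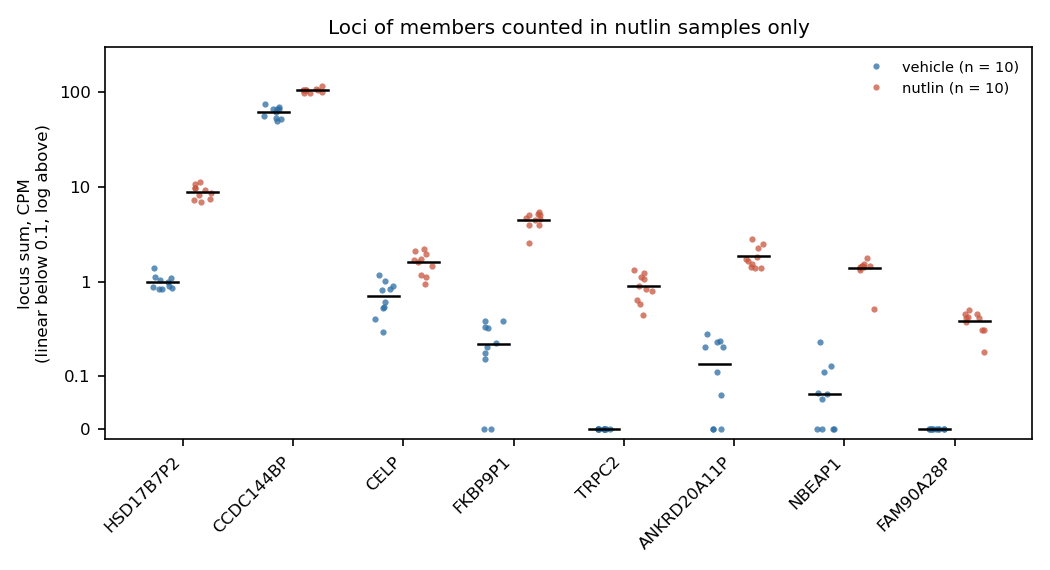
Locus sums (the member with its overlapping same-strand lncRNAs) in CPM for the 8 members counted in nutlin samples only, on an axis that is linear below 0.1 CPM and logarithmic above. Points are samples, blue for vehicle and red for nutlin (n = 10 each), and black bars are means. TRPC2 and FAM90A28P lie at 0 in every vehicle sample. The locus of CCDC144BP, which also takes in USP32P2, was already between 49.9 and 74.7 CPM in vehicle.

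Among members of at least 1 CPM whose groups did not overlap, the 10 largest rises and all 3 falls are given here, except the copies of PKD1, which follow with their family. AMZ2P1 (chr17:64968222-64973517, minus strand) had 2.13 to 4.96 CPM in vehicle (median 2.71) and 8.34 to 11.9 CPM in nutlin samples (median 9.14). It rose by an LFC of 1.63 (SE 0.12, edgeR adjusted p = 1.35e-13). Its locus, of which the pseudogene model took 24.6% in vehicle and 23.1% in nutlin samples, rose just as far, from 12.6 ± 1.3 to 41.1 ± 2.8 CPM (LFC 1.71, SE 0.05). The parent AMZ2 also rose, by an LFC of 0.69 (SE 0.05), and the log2 ratio of AMZ2P1 to AMZ2 was higher by 0.89 in nutlin samples without overlap (permutation p = 6e-05, n = 10 against 10).

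ENSG00000237268 (chr7:56421857-56432702, minus strand) stood at 0.572 to 1.62 CPM in vehicle (median 0.973) and 2.88 to 5.05 CPM in nutlin samples (median 4.24). Its LFC of 2.0 (SE 0.16, edgeR adjusted p = 1.58e-12) was matched by that of its locus, 1.99 (SE 0.13), of which it held 71.2%. GOLGA6L5P, one of the golgin copies of chromosome 15 (chr15:84509926-84516785, minus strand), went from 10.5 to 14.4 CPM (median 12.6) to 26.1 to 33.4 CPM (median 28.2). Its LFC was 1.21 (SE 0.06, edgeR adjusted p = 3.87e-18) and that of its locus 1.11 (SE 0.04). The coding gene GOLGA6L4 contains 91.5% of the 31-mers of GOLGA6L5P and rose by an LFC of 0.67 (SE 0.14).

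H2BC20P (chr1:149850193-149850772, minus strand), a copy of a histone H2B gene, had 5.63 to 8.46 CPM in vehicle (median 7.55) and 12.9 to 18.8 CPM in nutlin samples (median 16.5). It rose by an LFC of 1.14 (SE 0.08, edgeR adjusted p = 1.37e-13). None of its 31-mers was unique, since all occur in the lncRNA over it, and the locus rose by an LFC of 1.34 (SE 0.05). PDE4DIPP2 (chr1:120489860-120701289, minus strand), which keeps 42 exons, had 2.82 to 4.93 CPM in vehicle (median 4.22) and 5.51 to 8.16 CPM in nutlin samples (median 7.28). It rose by an LFC of 0.77 (SE 0.09, edgeR adjusted p = 1.48e-08), and no lncRNA overlaps it.

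Another 2 large rises exceeded those of their loci. WASH2P (chr2:113588550-113599034, plus strand), a copy of the subtelomeric WASH genes that encode an activator of actin branching on endosomes, had 0.206 to 1.59 CPM in vehicle (median 0.997) and 1.68 to 6.11 CPM in nutlin samples (median 3.45), an LFC of 2.02 (SE 0.27, edgeR adjusted p = 1.11e-07). The lncRNA of the same name contains 85.8% of the 31-mers of the model. The model held 2.74% ± 1.5 of the locus in vehicle and 9.60% ± 3.3 in nutlin samples (SD, n = 10 each). The locus rose by only 0.21 (SE 0.05, edgeR adjusted p = 3.06e-04). USP32P1 (chr17:16796043-16802427, plus strand), a copy of a ubiquitin protease gene, rose by an LFC of 1.2 (SE 0.17) from a median of 3.62 to 7.10 CPM. It had no unique 31-mer, its locus rose by 0.41 (SE 0.06), and the coding gene ENSG00000266302, which contains its whole sequence, rose by 1.06 (SE 0.13).

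The falls were led by ZNF887P, a zinc finger gene copy (chr19:11648364-11652877, plus strand). It had 6.52 to 8.56 CPM in vehicle (median 7.66) and 1.46 to 2.69 CPM in nutlin samples (median 1.99), and fell by 1.88 on the log2 scale (SE 0.10, edgeR adjusted p = 6.36e-17). With 51.0% of its 31-mers unique it was among the better resolved members, and its locus fell by 1.12 (SE 0.08). TUBA5P, an alpha-tubulin copy (chr1:202852991-202859099, minus strand), went from 1.64 to 3.50 CPM (median 2.78) to 0.609 to 1.08 CPM (median 0.928). It fell by 1.63 (SE 0.15, edgeR adjusted p = 7.66e-11) and its locus by 1.64 (SE 0.07).

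CRYBB2P1 (chr22:25455712-25459681, plus strand) went from 32.8 to 48.4 CPM (median 41.7) to 25.5 to 30.3 CPM (median 28.4). It fell by 0.55 (SE 0.06, edgeR adjusted p = 1.59e-09), and its locus by 0.47 (SE 0.05).

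**Figure D2:**
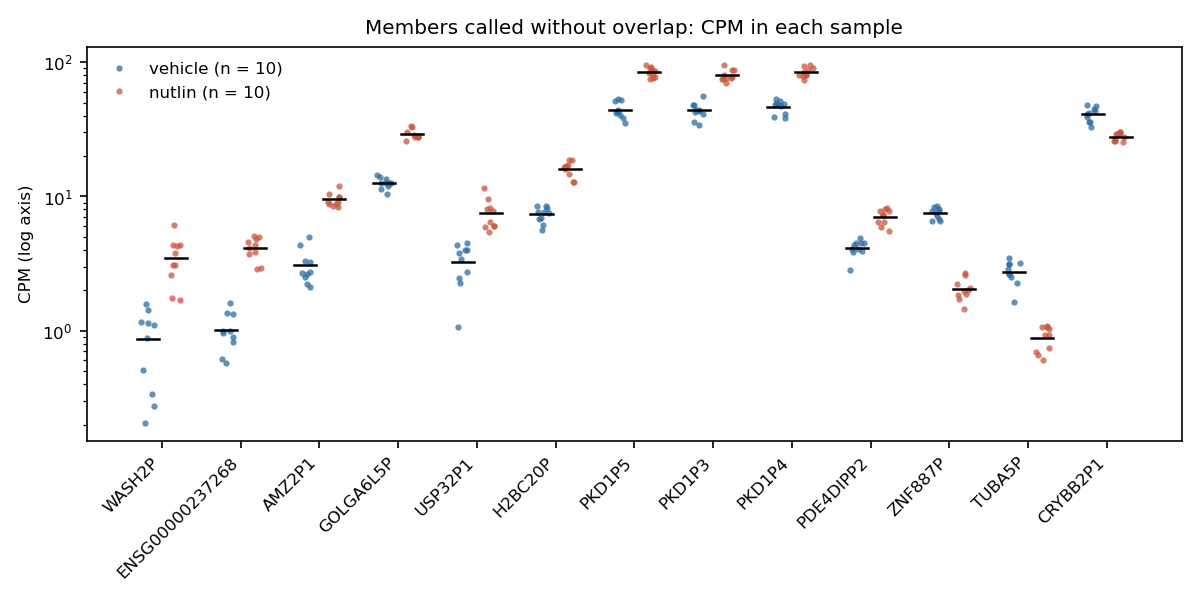
CPM on a log axis for the 10 members with the largest rises and the 3 with falls among called members of 1 CPM or more whose groups did not overlap. Points are samples (blue vehicle, red nutlin, n = 10 each) and black bars are group means. The 3 PKD1 pseudogenes lie highest, with nutlin samples between 70.3 and 95.6 CPM, and the vehicle samples of WASH2P and USP32P1 are widely spread.

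Per length, in the authors' TPM (counts scaled to effective length and library size), CRYBB2P1 was by far the most abundant member, at 117 ± 10 TPM in vehicle (SD, n = 10). NPEPPSP1 (19.7 ± 1.7), H2BC20P (18.9 ± 2.3), ZNF731P (16.6 ± 2.7), CROCCP2 (16.6 ± 2.2) and GTF2H2B (15.96 ± 2.7 TPM) followed and did not differ beyond their spread from their neighbours in this order. ZNF731P, CROCCP2 and GTF2H2B, copies of a zinc finger gene, of the gene of rootletin in the ciliary rootlet and of a TFIIH subunit gene, fell by 0.35 (SE 0.07), 0.34 (SE 0.06) and 0.24 (SE 0.07) on the log2 scale, with overlapping groups. ZNF731P was the most resolved of the 6, with 83.8% of its 31-mers unique, whereas GTF2H2B had 0.214% and H2BC20P none.

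The annotation splits most of these loci. In GENCODE release 44 a member is usually a single transcript model with the layout of the pseudogene (792 of 794 members had 1 transcript), and 643 members share exon bases on the same strand with a separate lncRNA gene, 190 times with the same symbol. Of the 82 members of at least 1 CPM, 67 had such a partner, and the pseudogene model took a median of 27.5% of the CPM of the locus (quartiles 15.7 and 56.4%). For 46 of the 67 it took less than the rest of the locus.

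Summing over the locus mostly kept the calls. Of the 42 called members with a partner, 40 had a locus called in the same direction, 0 in the opposite direction and 2 not called, GUSBP1 and H2BC19P, while 49.6% of all rows tested after summing were called. Each sum holds the counts of the member itself, 99.9% of the locus for PKD1P3, so this agreement is partly built in. The partners alone were not tested. Of 25 members not called, 17 had a locus that was. Among these the locus fell for GTF2IP1 (LFC -0.95, SE 0.04), STAG3L3 (-0.20) and NSUN5P1 (-0.20), with member LFCs of 1.14, 0.75 and 0.38. It rose for RRN3P1 (0.41) and RABGEF1P1 (0.19), with member LFCs of -0.002 and -0.03. The others had the same sign as their locus. The difference between the LFC of the member and that of its locus was under 0.25 for 41 of the 67, with a median of 0.18. For 8 of them the member lay further from 0 by over 0.5, among them WASH2P, USP32P1, CSPG4P12, RP9P and ZNF887P, and the model held 4.88 to 43.3% of the locus in these 8.

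**Figure D3:**
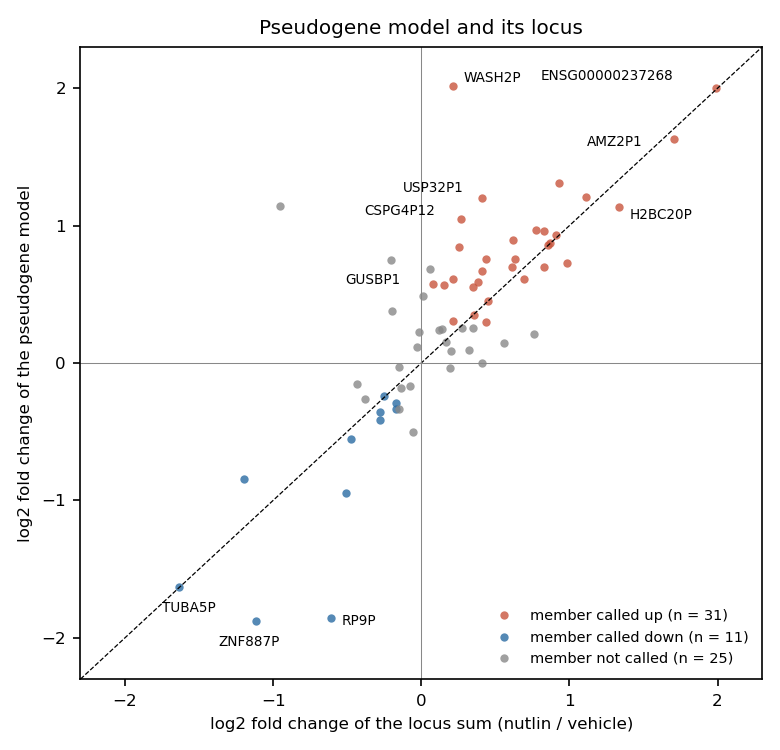
LFC of the pseudogene model (vertical) against LFC of the locus sum (horizontal) for the 67 members of at least 1 CPM with an overlapping same-strand lncRNA. The dashed line marks equal values. Called members fall on the same side of 0 as their locus, AMZ2P1, TUBA5P and ENSG00000237268 lie on the line, and WASH2P, USP32P1, CSPG4P12 and RP9P lie away from it.

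How far a single copy could be told from its relatives varied. Of the 359 tested members, 70 had no unique 31-mer and 70 had at least 50% unique, with a median of 14.1%. The median was 4.25% among the 82 of at least 1 CPM, of which 9 were at least 50% unique. Calls were made for 7 of these 9, a share near the 78.8% of all genes of at least 1 CPM. The rises among these were SLC7A5P1, PPIEL, CCZ1P1 and ADAMTS7P3 and the falls ZNF887P, TUBA5P and ZNF731P.

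The spread between samples of 1 group was highest where little sequence was unique. Among the 37 members of at least 5 CPM, the coefficient of variation over the vehicle samples had a median of 0.248 for the 12 with under 1% unique, 0.128 for the 15 with 1 to 20% and 0.122 for the 10 with at least 20%. Counting error alone would give medians of 0.0864, 0.0723 and 0.0907. For the same 12 the coefficient of variation of the locus sum had a median of 0.0788. The highest value was 1.201, for GTF2IP1, a copy of the transcription factor gene GTF2I.

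**Figure D4:**
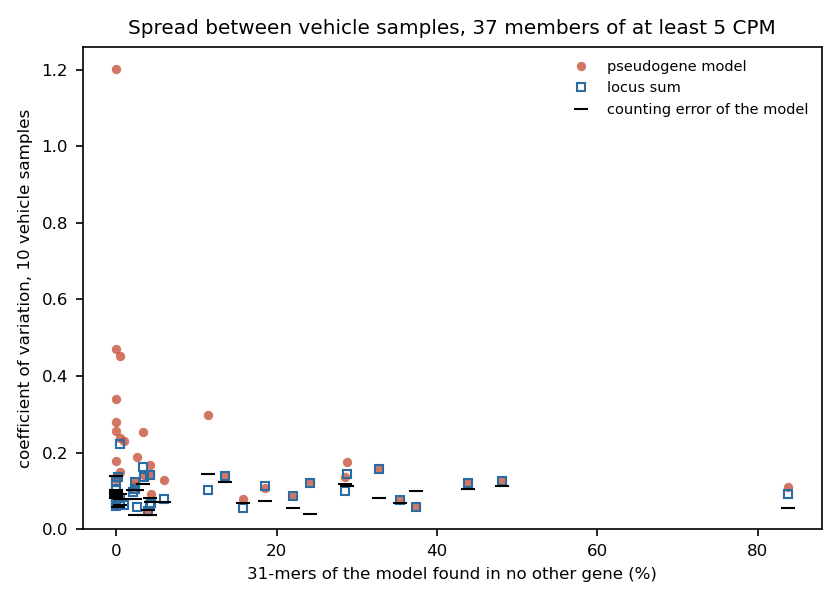
Coefficient of variation of the CPM over the 10 vehicle samples (vertical) against the percentage of 31-mers found in no other gene (horizontal) for the 37 members of at least 5 CPM. Red points are the pseudogene models, open blue squares their locus sums (equal to the model where there is no partner) and black dashes the counting error of the model. The high values, up to 1.201, lie near 0% unique, where the locus sums stay low.

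A parent gene was found by name for 315 members, and in 178 pairs both genes were tested. Both were called in 47 pairs. They moved in the same direction in 27 (20 up and 7 down) and in opposite directions in 20, of which 17 had the pseudogene up and the parent down. The pseudogene alone was called in 8 pairs, the parent alone in 88 and neither in 35. In the 48 pairs with both genes at 1 CPM or more, both were called in 24, with 18 in the same and 6 in opposite directions. There the pseudogene had a median of 6.61% of the CPM of its parent in vehicle samples and was above it in 3 pairs.

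Because a call in 1 gene and not in the other is no test of a difference, the log2 ratio of pseudogene to parent was compared between the groups. This was done for 30 pairs by a permutation test, and 20 gave an unadjusted p below 0.05. Part of the 30 were picked by their fold changes in these same samples, so the 20 say nothing about pairs at large. For the 6 opposite pairs, already called with opposite signs, a low p in CPM was all but fixed in advance. In 5 of the 6 opposite pairs the pseudogene rose. PARGP1 had 3.69 to 5.41 CPM in vehicle (median 4.39) and 6.83 to 8.76 CPM in nutlin samples (median 7.38), and rose by an LFC of 0.76 (SE 0.08, edgeR adjusted p = 8.89e-10). PARG fell by 0.29 (SE 0.04) from a median of 42.2 to 34.2 CPM. The groups overlapped for neither gene, and the log2 ratio was higher by 1.03 in nutlin samples (permutation p = 6e-05, n = 10 each). The locus of PARGP1 rose as well, by 0.63 (SE 0.06).

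PDE4DIPP2, described above, rose while PDE4DIP fell by 0.20 (SE 0.05) from a median of 29.9 to 24.96 CPM, and the ratio was higher by 0.93 (permutation p = 6e-05, n = 10 each), or by 0.49 when TPM was used. In TPM the parent did not go down, at 9.49 ± 1.5 in vehicle and 10.2 ± 1.5 in nutlin samples (SD, n = 10 each). CCZ1P1, a copy of a gene for membrane trafficking to lysosomes (chr7:97969005-97972254, minus strand, 58.3% unique), went from a median of 1.80 to 2.40 CPM, an LFC of 0.53 (SE 0.13, edgeR adjusted p = 1.22e-03). CCZ1 fell by 0.40 (SE 0.04), and the ratio was higher by 0.89 (permutation p = 6e-05, n = 10 each) without overlap.

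GUSBP1, a copy of the lysosomal beta-glucuronidase gene (chr5:21459560-21501826, plus strand), had 1.53 to 4.60 CPM in vehicle (median 2.86) and 2.80 to 6.01 CPM in nutlin samples (median 4.38), an LFC of 0.58 (SE 0.15, edgeR adjusted p = 1.51e-03). GUSB fell by 0.63 (SE 0.04), and the ratio was higher by 1.18 (permutation p = 6e-05, n = 10 each). No 31-mer of GUSBP1 was unique, and its locus was not called (LFC 0.08, SE 0.06, edgeR adjusted p = 0.295).

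NPEPPSP1, a copy of the puromycin-sensitive aminopeptidase gene (chr17:38195872-38257152, minus strand), rose by 0.14 (SE 0.05, edgeR adjusted p = 0.0239) while NPEPPS fell by 0.23 (SE 0.03). The log2 ratio was higher by 0.37 in CPM (permutation p = 6e-05, n = 10 each) but only by 0.045 in TPM (permutation p = 0.622, n = 10 each), so that this pair rests on the unit. NPEPPS itself stood at 70.4 ± 7.8 TPM in vehicle and 74.4 ± 8.0 TPM in nutlin samples. PMS2P1 went the other way. It had 7.77 to 12.8 CPM in vehicle (median 9.08) and 5.98 to 7.88 CPM in nutlin samples (median 7.12) and fell by 0.43 (SE 0.08, edgeR adjusted p = 3.77e-05), while PMS2 rose by 0.23 (SE 0.05). The ratio was lower by 0.64 on the log2 scale (permutation p = 6e-05, n = 10 each).

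Of the pairs with the same direction, the most unequal was CSPG4. The gene itself went from 0.412 to 1.53 CPM (median 1.01) to 21.8 to 34.6 CPM (median 32.8), an LFC of 4.98 (SE 0.13, edgeR adjusted p = 2.04e-24). All 3 of its pseudogenes above 1 CPM rose far less, CSPG4P12 by 1.05 (SE 0.27), CSPG4P11 by 0.70 (SE 0.05) and CSPG4P10 by 0.57. CSPG4P12 was above CSPG4 in vehicle samples by a mean log2 ratio of 0.59 and below it in nutlin samples by 2.90, a difference of -3.49 without overlap (permutation p = 6e-05, n = 10 each). The locus of CSPG4P12 rose by 0.27 (SE 0.05).

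RP9P, a copy of the splicing-related gene RP9 (chr7:32916815-32943038, minus strand), had 0.957 to 5.70 CPM in vehicle (median 2.62) and 0 to 1.40 CPM in nutlin samples (median 1.07). It fell by 1.86 (SE 0.39, edgeR adjusted p = 1.77e-04) with overlapping groups, its locus by 0.61 (SE 0.07) and RP9 by 0.30 (SE 0.05). SLC7A5P1, a copy of the gene of the amino acid transporter LAT1 (chr16:29613103-29613640, minus strand), rose by 1.02 (SE 0.16) and SLC7A5 by 0.88 (SE 0.05). Their log2 ratio was -7.64 ± 0.33 in vehicle and -7.64 ± 0.28 in nutlin samples (SD, n = 10 each), and a difference was not detectable (permutation p = 0.974).

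**Figure D5:**
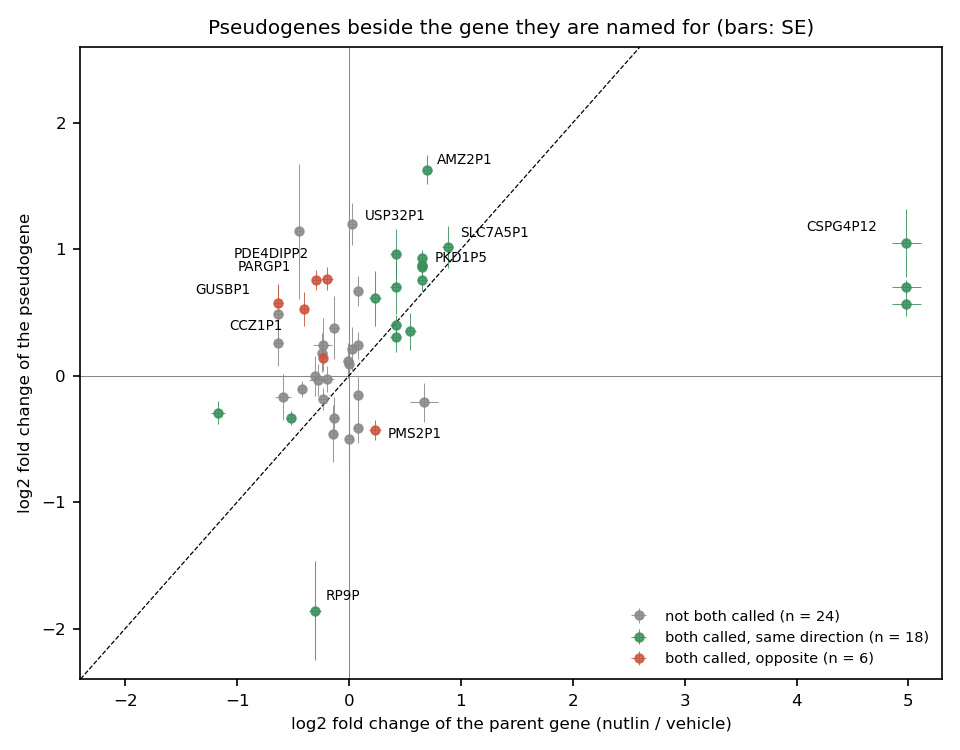
LFC of the pseudogene (vertical) against LFC of the gene it is named for (horizontal) for the 48 pairs with both at 1 CPM or more, with bars of 1 SE and a dashed line of equal values. The 6 red points are pairs called in opposite directions, and the 3 points at the far right share 1 parent, CSPG4, with an LFC of 4.98.

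Families of copies were described where at least 4 members with the same name stem were tested. Their counts are read against the 27.9% of all genes that rose and the 21.4% that fell. Copies of a family can share most of their sequence, so their calls need not be independent of each other. All 4 pseudogenes of PKD1 rose, by LFCs of 0.76 to 0.93. PKD1P5 (chr16:18374521-18401940, minus strand) had 35.1 to 53.6 CPM in vehicle (median 42.9) and 74.9 to 94.97 CPM in nutlin samples (median 85.04), an LFC of 0.93 (SE 0.06, edgeR adjusted p = 5.25e-14). PKD1P3 rose by 0.87 (SE 0.07) and PKD1P4 by 0.86 (SE 0.06), neither with overlap. The family sum rose from 144 ± 16 to 266 ± 21 CPM (SD, n = 10 each), an LFC of 0.88 (SE 0.05).

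PKD1 itself rose by less, 0.65 (SE 0.05), from a median of 174 to 273 CPM. The log2 ratio to PKD1 was higher in nutlin samples by 0.29 for PKD1P5 (permutation p = 6e-05), 0.23 for PKD1P3 (permutation p = 2.8e-04) and 0.21 for PKD1P4 (permutation p = 3.6e-04, n = 10 each), and for PKD1P6 the difference of 0.10 had a permutation p of 0.195. In TPM all 4 differences were between 0.43 and 0.64. Coding genes of the NPIPA family share exon bases with 3 of these models on the same strand, and they rose too: NPIPA9 over PKD1P5 by 0.75 (SE 0.08), NPIPA8 over PKD1P4 by 0.71 (SE 0.06) and NPIPA1 over PKD1P3 by 0.42 (SE 0.04). Their part in the rise of the pseudogenes was not tested.

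The 6 tested copies of SMG1, the kinase of nonsense-mediated decay, included 4 that rose and 0 that fell. Over all genes 27.9% rose. SMG1P3 contains 96.3% of the 31-mers of SMG1P1, so the calls of these copies are not separate observations. The sum of the 6 copies rose from 28.6 ± 5.0 to 45.3 ± 3.9 CPM. Its LFC was 0.67 (SE 0.08, edgeR adjusted p = 6.18e-09), beside 0.42 (SE 0.05) for SMG1. SMG1P1 was the most abundant of them over the 20 samples. It had 2.45 to 13.0 CPM in vehicle (median 8.56) and 10.8 to 20.7 CPM in nutlin samples (median 15.1) and rose by 0.96 (SE 0.19). It has no unique 31-mer, its coefficient of variation in vehicle was 0.471, and NPIPB5, a coding gene that overlaps it, had an LFC of 0.03 (edgeR adjusted p = 0.630).

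Of the 11 tested copies of BMS1, a ribosome assembly factor that fell by 0.42 (SE 0.03), 3 rose, 8 were not called and 0 fell, a share of rises near the 27.9% over all genes. BMS1P20, with most of the family's counts, was at a median of 13.0 CPM in vehicle and 12.1 CPM in nutlin samples (LFC -0.11, SE 0.06, edgeR adjusted p = 0.162). The ratio of BMS1P20 to BMS1 was higher by 0.31 (permutation p = 1e-04, n = 10 each), and the family sum was not called (LFC 0.06, SE 0.05). That sum holds the models alone, without their overlapping lncRNAs. The loci of BMS1P1 (LFC 0.58, SE 0.08), BMS1P2 (0.92, SE 0.07), BMS1P4 (0.57, SE 0.07) and BMS1P22 (1.04, SE 0.09) were called up. So were those of BMS1P3, BMS1P8 and BMS1P21, while that of BMS1P17 was not called. Of all rows tested after summing, 49.6% were called. The models of BMS1P1 and BMS1P22 held 0.83% and 10.3% of their loci.

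For GUSB, 1 of 4 copies rose and the sum of the models rose by 0.51 (SE 0.10), against the fall of GUSB. The loci with most counts were not called, that of GUSBP1 (LFC 0.08, SE 0.06) and that of GUSBP18 (0.01, SE 0.06). The model of GUSBP18 held 7.13% of its locus. The locus of GUSBP2 rose by 0.35 (SE 0.13). For USP32, 1 of 4 rose and the sum rose by 0.78 (SE 0.13), whereas USP32 was not called (LFC 0.03, edgeR adjusted p = 0.571). HERC2, the parent of copies on chromosomes 15 and 16 and a giant ubiquitin ligase, was not called either (LFC 0.08, SE 0.04), and of its 6 copies HERC2P3 rose by 0.67 (SE 0.12) and HERC2P5 fell by 0.41. For PMS2, 1 of 7 copies rose, 1 fell and the sum fell by 0.27 (SE 0.08).

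None of the 4 tested copies of GOLGA2 or the 4 of SEPTIN7 were called by edgeR. Of their loci, that of GOLGA2P5 rose (LFC 0.57, SE 0.09), that of SEPTIN7P2 fell (LFC -0.23, SE 0.05) and the others were not called. The models of GOLGA2P5 and SEPTIN7P2 held only 0.83% and 0.098% of these loci. GOLGA2P10 had a median of 8.06 CPM in vehicle and 9.46 CPM in nutlin samples (LFC 0.12, SE 0.14). SEPTIN7, a cytoskeletal GTPase gene, fell by 0.97 (SE 0.04), while SEPTIN7P13, the most abundant of its copies, was at 0.0552 to 0.343 CPM in vehicle and 0.0584 to 0.324 CPM in nutlin samples (LFC 0.48, SE 0.39).

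Members were also grouped by the name stems of families known from certain duplications or roles, wherever the single copy lies. The counts are read against the 27.9% of all genes that rose and the 21.4% that fell. For the stems linked to 16p (SMG1, PKD1, ABCC6 and others), 8 of 13 tested members rose and 0 fell, with a median LFC of 0.70, against 0.48 for all members. These 8 belong to only 2 families, whose copies share sequence, and SMG1P7 is a copy far from the others on chromosome 16, at chr16:70219870. For the stems linked to 7q11 (GTF2I, NCF1, STAG3, PMS2, POM121 and others), 2 of 17 rose and 1 fell, which is PMS2P1 at chr7:100328836, further along the arm. For those linked to 15q, 3 of 13 rose and 1 fell, which is HERC2P5 on chromosome 16.

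In the remaining groups the counts were small. For stems linked to 22q and 1q21, 2 of 5 rose, PDE4DIPP2 on chromosome 1 and ANKRD20A21P on chromosome 20. For 6p21 1 of 3 rose (CYP21A1P), and for subtelomeric and pericentromeric families 3 of 9 (WASH2P, ANKRD36BP2 and FRG1CP), with 0 falls in each of these groups. For metabolic enzymes 3 of 13 rose (GUSBP1, CYP21A1P and SDHAP2), for solute and ion transport 2 of 5 (SLC16A6P1 and SLC7A5P1), and for cadherins and other adhesion genes 1 of 4 (PCDHB19P), again with 0 falls. Among zinc finger and transcription genes 5 of 14 rose and 2 fell (ZNF731P and ZNF887P). Keratin, tubulin and other cytoskeletal copies had 0 rises and 2 falls among 10 (TUBA5P and CROCCP2).

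By chromosome the tested members were most numerous on 7, with 53, of which 10 rose and 4 fell. On chromosome 17, 11 of 38 rose and 1 fell, on 15, 14 of 33 rose and 2 fell, on 1, 9 of 29 rose and 4 fell, and on 16, 14 of 28 rose and 1 fell. These counts too are read against 27.9% and 21.4% over all genes, and a share near those is no result about a chromosome.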

How the data were processed

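RNA-seq of NGP cells was analysed from the processed files of 20 samples, 10 nutlin-3 and 10 ethanol, with groups and numbers from the labels. The authors made stranded poly(A) libraries, sequenced them as paired-end reads of 75 bases and ran kallisto 0.42.4 against GRCh38 transcripts of Ensembl release 85. The deposited estimated counts are not normalized, and kallisto shares reads that match several transcripts among them. The deposited TPM values are scaled by effective length and library size. The deposited effective lengths, a length score in bases, were used in 1 alternative.

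Transcripts were matched by Ensembl identifier to GENCODE release 44 (191106 of 198968), and estimated counts were summed by gene and rounded. Genes of every type that had a count in both conditions (36016) were fitted together with edgeR 4.0.16 in R 4.3.3 (TMM, quasi-likelihood F-test, condition only, Benjamini-Hochberg at 5% FDR). The total was 14455477 to 19532971 counts per sample. CPM was taken over the library size of the tested genes (13977009 to 18898988) times its TMM factor (0.876 to 1.11). The authors call the replicates biological. Log2 ratios used CPM + 0.25 and a two-sided permutation test with 100000 resamples, in which 6e-05 was the smallest p found. A 31-mer was unique if found in no other gene of release 44, searched over the transcripts that are also in the deposited files. The 7862 unmatched transcripts were not searched. Locus sums joined a member with same-strand lncRNAs sharing exon bases, and with any member that overlapped it or shared such an lncRNA. Parents were protein-coding genes named as the symbol without P and number. Sequence stretches were aligned with blastn. Alternatives were DESeq2 1.42.0 (size factors or test), limma 3.58.1 voom, 3 filters, other gene sets, library sizes and lengths, 1% FDR, a replicate block and a uniqueness limit.

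Named members were the 10 largest rises and falls (at least 1 CPM, called, no overlap), the 6 of highest vehicle TPM, up to 8 opposite and 4 same-direction pairs, and the top member of each family with at least 4 tested. Members and lists were chosen with earlier results of these data known. Same-numbered samples of the 2 groups did not deviate together. A further marker gene is not reported here.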

Additional observations from a re-analysis of the deposited data

Results flagged for a closer look

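Among the 29 named members, 58 groups of 10 samples were searched for a highest or lowest sample set apart from the others by more than Dixon's 95% critical value, and 2 were found. Chance gives about 1 in 20 groups. PDE4DIPP2 was lowest in vehicle replicate 7, at 2.816 CPM, with the nearest sample at 3.834 CPM. PMS2P1 was highest in vehicle replicate 10, at 12.82 CPM, with the nearest sample at 10.44 CPM. Both lie in the vehicle group, on the side away from the nutlin samples, and what set these samples apart was not tested.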

How the results depend on the processing

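The 115 calls (95 up, 20 down) and 20 opposite pairs were fewer where fewer genes were tested. With filterByExpr 69 of 101 members were called (55 up) and 11 pairs were opposite, and with at least 1 count in every sample 67 of 103 (53 up) and 13 pairs. Members at least 50% unique had 22 calls (18 up, 4 down) among 70 tested, and 2 opposite pairs. Locus sums, chosen after the data were seen, gave 288 calls (236 up, 52 down) among 547 loci and 48 opposite pairs. With no filter 162 of 529 were called. DESeq2, voom, other size factors, gene sets, library sizes, effective lengths and 1% FDR kept these counts within 1.5 times, as did family sums for the calls.

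With a replicate block, which left 16 samples, 110 members were called, against 107 in the same samples without it. The correlation of deviations of same-numbered samples was -0.0052 on average (-0.058 to 0.063), so no shared deviation was seen. Whether same-numbered cultures were set up together is not stated, and a small shared effect could be missed. NPEPPSP1 lost its call with the block (LFC 0.08, edgeR adjusted p = 0.373) and without it in these 16 samples (adjusted p = 0.215). GUSBP1 lost it only as a locus sum (0.08). GOLGA2P10, not called, turned to -0.0074 without the block and -0.031 as a locus sum.

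For the log2 ratios, TPM took CROCCP2 (0.13, permutation p = 0.0987) and NPEPPSP1 (0.045, permutation p = 0.622) out of significance, as well as HERC2P5 (-0.16 against -0.46 in CPM, permutation p = 0.182), and brought in HERC2P9 (0.42, permutation p = 0.0021), PKD1P6 (0.43, permutation p = 6e-05) and SMG1P7 (-0.29, permutation p = 0.0155, and -0.22 with a pseudocount of 1 CPM, permutation p = 0.0373). SLC7A5P1 gave 0.12 with a pseudocount of 0.05 CPM, -0.28 with 1 CPM (permutation p = 0.0118) and 0.11 in TPM. The causes were not tested. The median LFC of all genes was 0.22, and moved to 0.05 with filterByExpr, 0.08 with a count in every sample and 0.37 with no filter. The median level was 0.159 CPM, where counting error is large, and 70 tested members had no unique 31-mer.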

Other observations

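LRRC37A4P and CSPG4P11 completed the list of 13 members of at least 1 CPM that rose without overlap, with LFCs of 0.61 (SE 0.07) and 0.70 (SE 0.05, edgeR with Benjamini-Hochberg adjustment for both). LRRC37A4P is a copy of a leucine-rich repeat gene of the 17q21 duplications. ANKRD20A11P, listed at 0 in every vehicle sample, had counts in 3 of the 10 nutlin samples only, up to 13.0 estimated counts, while its locus rose in all of them, from 0 to 0.281 CPM in vehicle to 1.38 to 2.79 CPM. Of the tested members, 31 share exon bases with a protein-coding gene on the same strand, and for these the files cannot separate the pseudogene from the coding transcript where the sequence is common.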
